A study of Mus musculus with 12 samples.

Results

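Trp53, the mouse gene of the tumour suppressor p53, and 9 genes known as p53 targets were followed through 12 RNA-sequencing libraries of mouse bone marrow cells. The 10 genes (Trp53, Mdm2, Ccng1, Perp, Zmat3, Btg2, Aen, Sesn2, Phlda3 and Gadd45a) were taken by symbol, and all 10 were among the 22364 symbols present in all 3 deposited tables. The study asked how PRDM16, named in its title as a histone methyltransferase, differs from a mutant form, PRDM16mut, in cells that carry a leukaemia fusion oncogene. What was altered in PRDM16mut is not stated by the labels.

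There were 6 groups of 2 libraries. In the MLL-AF9 cotransduction, lineage-negative (Lin-) bone marrow cells received MLL-AF9 together with PRDM16 or with PRDM16mut. In the E2A-HLF cotransduction, the same kind of cells received E2A-HLF together with PRDM16 or with PRDM16mut. Both cotransductions were collected after 10 days of selection with G418 and puromycin. The MLL-AF9 stable cells carried the fusion before PRDM16 or PRDM16mut was added, and were collected after 10 days of puromycin. All cells came from C57BL/6 mice and grew in IMDM, 15% FBS and 3 cytokines (SCF, IL6 and IL3, each at 10 ng/ml). Every group thus carries a fusion oncogene and 1 of the 2 forms of PRDM16, so a gene called higher with PRDM16 is equally a gene lower with PRDM16mut. No source used here gives the vectors, the number of animals or whether replicates were separate cultures, so the p-values cover no more than the variation among these libraries, part of which may be technical.

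p53 is a transcription factor that is kept low mainly through degradation of its protein. Mdm2 marks p53 for that degradation, and since Mdm2 is itself switched on by p53, the pair forms a negative feedback loop. When DNA damage, oncogene activity or disturbed ribosome production frees p53 from Mdm2, it raises genes that halt the cell cycle, repair DNA, restrain growth signalling or kill the cell. In blood cells p53 limits stem cell expansion and is a barrier to leukaemia. The libraries measure RNA alone, so neither the amount nor the activity of the p53 protein was observed.

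With PRDM16, 9 of the 10 genes rose and 1, Mdm2, fell in the MLL-AF9 cotransduction. For E2A-HLF, 6 rose, 1 (Trp53) fell and 3 did not pass the test. In the MLL-AF9 stable cells 0 of the 9 genes tested rose and 1, Aen, fell by limma's adjusted p. At an unadjusted p under 0.05, 1 was higher and 2 lower there. Perp changed most, from 18.0 to 54.4 FPKM in the MLL-AF9 cotransduction and from 7.10 to 44.1 in the E2A-HLF cotransduction, and was below 0.21 FPKM in every library of the stable cells. FPKM counts fragments relative to transcript length and library size. A call means an adjusted p under 0.05 in limma (linear model on log2 of FPKM plus 1, Benjamini-Hochberg over all genes tested in the table, two-sided). The added 1 makes fold changes of low genes smaller than they are in FPKM.

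These counts are read against the calls over all genes, and library values below are given with PRDM16 first. In the MLL-AF9 cotransduction 69.5% of 11071 tested genes were called, 35.6% higher and 34.0% lower. For E2A-HLF 43.8% of 11010 were called, 22.7% higher and 21.1% lower. For the stable cells 6.36% of 10580 were called, 4.20% higher and 2.16% lower. The libraries of the 2 forms did not overlap for 10 of 10 genes in the MLL-AF9 cotransduction, 9 of them higher with PRDM16, where 86.3% of all tested genes did not overlap and 43.6% were so and higher. They did not overlap for 8 of 10 in the E2A-HLF cotransduction, against 73.7% of all, nor for 8 of 10 in the stable cells, against 60.6%. The 8 genes of the stable cells include Perp, which was not tested there, whereas the 60.6% covers tested genes alone.

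The median log2 fold change of the 10 genes was 0.76 in the MLL-AF9 cotransduction, against 0.0062 over all genes. It was 0.26 against 0.011 in the E2A-HLF cotransduction, and 0.040 over the 9 genes tested against 0.015 in the stable cells. The 10 genes were chosen with earlier results of these data known, so these medians are a description. All 10 genes passed the filter on low values (1 FPKM or more in 2 or more of a table's 4 libraries) in both cotransductions, and all but Perp did in the stable cells.

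The summed FPKM of a library ran from 570872 to 683269. The tables hold no read counts, so the total depth is unknown and no counting interval is given. From the steps of low values, the ratio of depths (replicate 2 over replicate 1) was 1.63 for PRDM16 in the MLL-AF9 cotransduction and 0.921 to 1.17 in the other 5 groups. These factors turned 56.6% to 65% of low-value ratios into ratios of whole numbers up to 6, within 0.5%. Prdm16 itself measured 83.9 and 119 FPKM against 29.5 and 30.1 in the MLL-AF9 cotransduction, 49.2 and 56.6 against 56.6 and 43.5 in the E2A-HLF cotransduction, and 77.9 and 80.0 against 89.1 and 94.6 in the stable cells, PRDM16 first. Both groups received a form of the gene, so this is no check of the labels. With PRDM16 its transcript was called higher in the MLL-AF9 cotransduction (log2 fold change 1.71, limma adjusted p = 4.18e-04). It was called lower in the stable cells (-0.22, 0.0414) and did not pass in the E2A-HLF cotransduction (0.086, 0.622). Where the level differed, the form of PRDM16 and its transcript level cannot be told apart. The part of that level in the results was not tested. The ribosomal RNA gene Rn45s stood at 0 in the 2 MLL-AF9 cotransduction libraries with PRDM16 and at 941 FPKM or more in the other 10. The sources used here do not say whether those 2 libraries were processed like the PRDM16mut libraries they are compared with, and the part of such a difference in the MLL-AF9 cotransduction values was not tested.

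Cell type markers differed between the groups of the cotransductions. In the MLL-AF9 cotransduction all 10 neutrophil markers fell, and their summed FPKM was 1110 to 1170 with PRDM16 and 53200 to 54300 with PRDM16mut. All 8 mast cell and basophil markers fell there too (110 to 116 against 2180 to 2190), while 5 of 7 monocyte markers rose and 1 fell (4920 to 4950 against 2060 to 2070) and 5 of 5 tested erythroid markers rose (622 to 1060 against 83.3 to 145). With E2A-HLF 7 of 8 tested neutrophil markers rose (1850 to 1930 against 673 to 687), 4 of 6 monocyte markers rose and 2 fell (378 to 401 against 65.4 to 68.9), and 5 of 6 stem and progenitor markers fell (1340 to 1420 against 2630 to 2810). The neutrophil sum of the stable cells was 15400 to 15600 against 14700 to 15300, with 1 marker higher and 2 lower of 10. Of 6 B cell markers, Ms4a1 and Pax5 were at 0 in all 12 libraries, and 1 passed the filter in each table. The 1 tested with E2A-HLF was lower (sum of the 6 markers 4.25 to 4.63 against 9.96 to 10.4). In the other experiments the 1 tested was not called. No T and NK cell or stromal marker passed the filter in any table. In such bulk samples, fewer cells of a type and less RNA per cell cannot be told apart. The part of these markers in the results on the 10 genes was not tested.

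**Figure D1:**
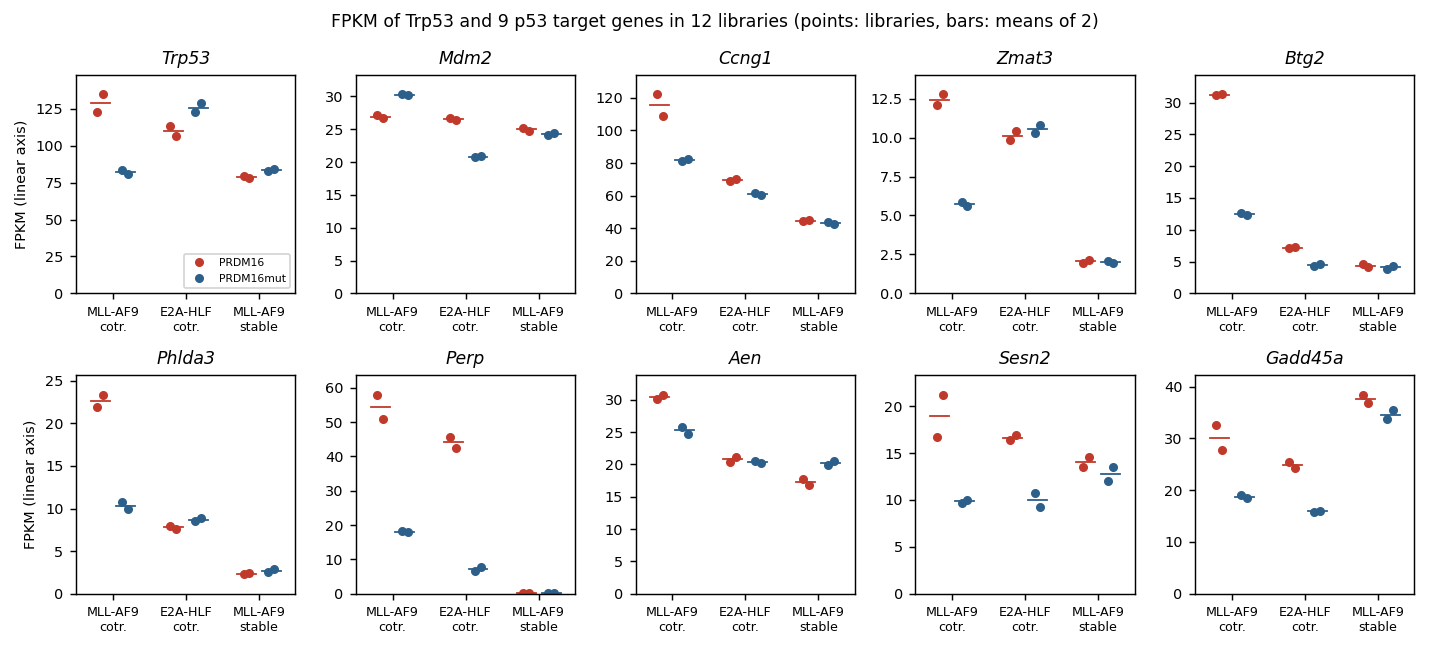
FPKM (vertical axes, linear from 0) of the 10 genes in each of the 12 libraries, by experiment, with red points for PRDM16, blue points for PRDM16mut and bars for the mean of 2 libraries. In the MLL-AF9 cotransduction the red points lie above the blue points for 9 genes and below them for Mdm2, and Perp is near 0 in the MLL-AF9 stable cells.

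Trp53 was among the more abundant of the 10 transcripts. It measured 123 and 135 FPKM against 83.7 and 80.6 in the MLL-AF9 cotransduction. It measured 114 and 107 FPKM against 123 and 129 in the E2A-HLF cotransduction. It measured 79.3 and 77.9 FPKM against 82.6 and 84.0 in the stable cells. The 2 forms did not overlap in any experiment, but the PRDM16 libraries were the higher ones in the MLL-AF9 cotransduction alone. There Trp53 rose by 0.64 on the log2 scale (standard error 0.064, limma adjusted p = 5.12e-04). With E2A-HLF it fell, with a log2 fold change of -0.19 (standard error 0.053, adjusted p = 0.0304). This call was lost without replicate 2 of PRDM16 (adjusted p = 0.181), without replicate 2 of PRDM16mut (0.0998) and without a filter on low values (0.0550). The stable-cell difference of -0.083 did not pass (95% interval -0.15 to -0.012, adjusted p = 0.134), and after quantile normalization it was -0.12 and passed narrowly (0.0481).

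Mdm2, the ubiquitin ligase that degrades p53 and the best known target in the feedback loop, stayed within a narrow range. It measured 27.1 and 26.6 FPKM against 30.3 and 30.2 in the MLL-AF9 cotransduction. It measured 26.7 and 26.5 FPKM against 20.7 and 20.9 in the E2A-HLF cotransduction. It measured 25.2 and 24.7 FPKM against 24.1 and 24.4 in the stable cells. By these library values Mdm2 moved against Trp53 in both cotransductions: lower where Trp53 was higher, and higher where Trp53 was lower. The Mdm2 call in the MLL-AF9 cotransduction and the Trp53 call in the E2A-HLF cotransduction did not stand under every alternative. Its log2 fold change was -0.16 in the MLL-AF9 cotransduction (standard error 0.051, limma adjusted p = 0.0330) and 0.34 in the E2A-HLF cotransduction (standard error 0.041, adjusted p = 0.00138). The fall was lost without replicate 1 of PRDM16mut (adjusted p = 0.270) and without replicate 2 (0.261), with the value itself at -0.16 and -0.17. Among the stable cells Mdm2 differed by 0.040 (95% interval -0.037 to 0.12, adjusted p = 0.433), which did not pass.

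Levels across experiments come from tables that were normalized apart, so their order is a description. Trp53 was highest in the MLL-AF9 cotransduction with PRDM16 (mean 129 FPKM), followed by the E2A-HLF cotransduction with PRDM16mut (126), whose libraries overlapped with it. Next came the E2A-HLF cotransduction with PRDM16 (110), the stable cells with PRDM16mut (83.3), the MLL-AF9 cotransduction with PRDM16mut (82.1) and the stable cells with PRDM16 (78.6). Of these lower neighbours only the groups at 83.3 and 82.1 overlapped. Mdm2 spanned a smaller range, from 30.2 FPKM in the MLL-AF9 cotransduction with PRDM16mut to 20.8 in the E2A-HLF cotransduction with PRDM16mut. Its levels with PRDM16 lay close together, at 26.9 FPKM in the MLL-AF9 cotransduction, 26.6 in the E2A-HLF cotransduction and 25.0 in the stable cells, and the first and second of these overlapped. The 2 lowest mean levels of Perp, Zmat3, Phlda3, Btg2, Ccng1 and Aen were the 2 groups of stable cells (for Btg2 and Aen overlapping with the next group), whereas the 2 highest of Gadd45a were those groups.

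The promoters of the genes were set beside these values because p53 acts on its targets through a DNA element made of a pair of 10-base units, the p53 consensus decamers. Promoter windows of 300 bases, 250 before to 50 after a start, came from RefSeq on build GRCm38.p6, and 8 of the 10 genes matched by symbol, with 9 windows (Aen has 2 starts). Perp and Zmat3 had no entry. The decamer, searched on both strands, was found in the windows of Trp53, Mdm2, Ccng1, Aen and Gadd45a and not in those of Btg2, Sesn2 and Phlda3, and 8.36% of all 32851 windows hold it. A pair of decamers within 13 bases of each other was found in 0 of the 9 windows, and 0.0731% of all windows hold one. The search allowed no mismatch and covered the windows alone, so the rest of each gene was not searched. The window of the first start of Cdkn1a, a p53 target outside the 10 genes, held such a pair. Such a match is a description of letters, not a binding site. The 250 bases before the start are shown for Trp53, Mdm2, Ccng1 and Btg2, with the decamer in capitals. Trp53 and Mdm2 differed in opposite directions by their library values, though not every call on them stood under the alternatives. Btg2 rose in both cotransductions without a match.
Trp53, chr11:69580109-69580358, plus strand: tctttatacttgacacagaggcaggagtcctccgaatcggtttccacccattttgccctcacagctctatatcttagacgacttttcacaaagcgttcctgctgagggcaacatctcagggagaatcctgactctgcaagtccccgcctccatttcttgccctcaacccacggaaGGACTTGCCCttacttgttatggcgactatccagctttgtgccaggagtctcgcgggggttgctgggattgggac
Mdm2, chr10:117710759-117711008, minus strand: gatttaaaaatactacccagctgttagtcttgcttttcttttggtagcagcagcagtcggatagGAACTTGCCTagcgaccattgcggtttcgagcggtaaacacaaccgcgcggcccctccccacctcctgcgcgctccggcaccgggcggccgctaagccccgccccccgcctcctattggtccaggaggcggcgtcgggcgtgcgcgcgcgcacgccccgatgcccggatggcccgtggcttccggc
Ccng1, chr11:40755287-40755536, minus strand: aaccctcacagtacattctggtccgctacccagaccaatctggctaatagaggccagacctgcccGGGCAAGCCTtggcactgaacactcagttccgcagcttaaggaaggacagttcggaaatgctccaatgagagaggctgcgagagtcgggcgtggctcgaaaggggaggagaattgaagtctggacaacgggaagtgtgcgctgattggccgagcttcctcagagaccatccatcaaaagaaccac
Btg2, chr1:134079156-134079405, minus strand: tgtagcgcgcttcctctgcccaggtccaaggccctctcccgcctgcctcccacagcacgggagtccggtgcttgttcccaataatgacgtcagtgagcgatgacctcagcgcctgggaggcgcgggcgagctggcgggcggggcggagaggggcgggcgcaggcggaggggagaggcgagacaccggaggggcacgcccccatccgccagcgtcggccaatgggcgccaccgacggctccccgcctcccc

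The decamers begin at position -75 from the start for Trp53, at -186 for Mdm2 and at -185 for Ccng1. In Gadd45a it begins at -40, and in Aen the same decamer lies at 10 from the first start and at -121 from the second. The matched letters are GGACTTGCCC in Trp53, GAACTTGCCT in Mdm2, GGGCAAGCCT in Ccng1, GGGCTAGCCC in Gadd45a and GGGCTTGTCC in Aen. The genes with a match in the window and those without both rose in the MLL-AF9 cotransduction, Mdm2 apart. The 9 windows held 52.7% to 72.0% G and C, against a median of 52.7% over all windows, and 10 to 35 CpG dinucleotides, against a median of 7. A window with at least 10 CpG was found in 43.5% of all.

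Ccng1, cyclin G1, helps to keep Mdm2 active through a phosphatase and thus also works against p53. It measured 122 and 109 FPKM against 81.3 and 82.4 in the MLL-AF9 cotransduction, a log2 fold change of 0.49 (standard error 0.069, limma adjusted p = 0.00187). It measured 68.9 and 70.4 FPKM against 61.8 and 60.2 in the E2A-HLF cotransduction, a log2 fold change of 0.19 (adjusted p = 0.0144). It measured 44.2 and 45.0 FPKM against 43.8 and 42.6 in the stable cells, a difference of 0.045 that did not pass (95% interval -0.031 to 0.12). Over all tested genes 43.6% were higher with PRDM16 without overlap in the MLL-AF9 cotransduction, 38.4% in the E2A-HLF cotransduction and 35.1% in the stable cells. Perp, Sesn2 and Gadd45a were higher in both PRDM16 libraries than in both PRDM16mut libraries of every experiment. In the stable cells the nearest Sesn2 libraries stood at 13.476 (PRDM16) and 13.472 FPKM (PRDM16mut), and Perp was under the filter. Ccng1 was likewise higher in both PRDM16 libraries of every experiment. The E2A-HLF call was lost after quantile normalization (0.11, adjusted p = 0.0865) and without either PRDM16 library (0.0517 and 0.0878) or replicate 2 of PRDM16mut (0.0527).

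Btg2, an antiproliferative protein that slows the cell cycle and promotes removal of mRNA tails, had one of the tightest pairs of replicates. It measured 31.2 and 31.3 FPKM against 12.7 and 12.4 in the MLL-AF9 cotransduction. It measured 7.16 and 7.25 FPKM against 4.30 and 4.58 in the E2A-HLF cotransduction. It measured 4.56 and 4.08 FPKM against 3.89 and 4.31 in the stable cells. It rose by 1.25 (standard error 0.053, limma adjusted p = 2.87e-05) and by 0.59 (standard error 0.056, adjusted p = 4.89e-04) in the cotransductions. In the stable cells the groups overlapped and the difference of 0.062 did not pass (95% interval -0.11 to 0.23).

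Gadd45a, a small stress protein that binds cell cycle regulators and repair factors, was the only one of the 10 with its highest levels in the stable cells. There it measured 38.4 and 36.9 FPKM against 33.7 and 35.5, a difference of 0.12 that did not pass (95% interval 0.022 to 0.22, limma adjusted p = 0.122). It measured 32.5 and 27.7 FPKM against 19.0 and 18.5 in the MLL-AF9 cotransduction and rose by 0.65 (standard error 0.086, adjusted p = 0.00150). It measured 25.5 and 24.3 FPKM against 15.8 and 15.9 in the E2A-HLF cotransduction and rose by 0.62 (standard error 0.047, adjusted p = 1.97e-04). The effects in the cotransductions did not differ beyond the test, with a difference of 0.035 (95% interval -0.17 to 0.24). A long noncoding RNA, E230016M11Rik, overlaps Gadd45a in the RefSeq annotation, and no strand setting for the counting is given in the sources used here.

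Zmat3, a zinc finger RNA-binding protein that slows growth, differed in the MLL-AF9 cotransduction alone. It measured 12.1 and 12.8 FPKM with PRDM16 there and 5.87 and 5.62 with PRDM16mut, a log2 fold change of 0.99 (standard error 0.062, limma adjusted p = 9.67e-05). It measured 9.84 and 10.4 FPKM against 10.3 and 10.8 in the E2A-HLF cotransduction, and in the stable cells 1.97 and 2.12 against 2.05 and 1.98. The groups overlapped in both of these, and the differences of -0.055 (95% interval -0.19 to 0.083) and 0.016 (-0.13 to 0.16) did not pass. The noncoding RNA 4930429B21Rik overlaps Zmat3 in the annotation.

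Perp, a membrane protein of cell junctions that takes part in p53-dependent cell death, was the member that changed most. It measured 58.0 and 50.8 FPKM against 18.1 and 17.9 in the MLL-AF9 cotransduction. It measured 45.6 and 42.5 FPKM against 6.48 and 7.72 in the E2A-HLF cotransduction. It measured 0.209 and 0.193 FPKM against 0.112 and 0.127 in the stable cells. The means stood at a ratio of 3.02 in the MLL-AF9 cotransduction and 6.21 in the E2A-HLF cotransduction, and no library of the other form reached them. The log2 fold changes were 1.54 (standard error 0.077, limma adjusted p = 4.75e-05) and 2.48 (standard error 0.083, adjusted p = 8.48e-06). The second exceeds in size 98.9% of the genes tested in its table. Perp in the stable cells was under the filter, and with no filter its difference of 0.10 did not pass (adjusted p = 0.117).

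Aen, a nuclease that helps to fragment DNA in dying cells, changed least among the genes that rose in the MLL-AF9 cotransduction. It measured 30.1 and 30.8 FPKM against 25.8 and 24.7 there, a log2 fold change of 0.26 (standard error 0.055, limma adjusted p = 0.00850). It measured 20.4 and 21.2 FPKM against 20.5 and 20.1 in the E2A-HLF cotransduction, groups that overlapped, with a difference of 0.033 (95% interval -0.078 to 0.14). It measured 17.8 and 16.8 FPKM against 19.8 and 20.5 in the stable cells and fell, with a log2 fold change of -0.21 (standard error 0.041, adjusted p = 0.0471). Aen was the only member called in the stable cells, and this call was lost without any 1 of the 4 libraries (adjusted p from 0.108 to 0.205), without a filter on low values (0.119) and with no trend in the variance (0.0716). The MLL-AF9 call was lost without replicate 1 of PRDM16mut (0.0818) and without replicate 2 (0.144).

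Phlda3 binds membrane lipids and holds back the survival kinase Akt. It measured 21.9 and 23.4 FPKM against 10.7 and 9.91 in the MLL-AF9 cotransduction, a log2 fold change of 1.06 (standard error 0.068, limma adjusted p = 1.07e-04). It measured 7.98 and 7.64 FPKM against 8.48 and 8.86 in the E2A-HLF cotransduction, a difference of -0.13 (adjusted p = 0.0950). It measured 2.26 and 2.4 FPKM against 2.5 and 2.89 in the stable cells, a difference of -0.15 (adjusted p = 0.236). The PRDM16 libraries were the lower ones in both of these experiments, without passing the test. Like Zmat3, Phlda3 rose in the MLL-AF9 cotransduction and in neither other experiment.

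Sesn2, a sestrin that restrains mTORC1 and also responds to lack of amino acids, had the largest log2 standard error of the 10 in the MLL-AF9 cotransduction. It measured 16.7 and 21.2 FPKM against 9.69 and 10.0 in the MLL-AF9 cotransduction, a log2 fold change of 0.87 (standard error 0.11, limma adjusted p = 0.00146). It measured 16.4 and 16.9 FPKM against 10.7 and 9.24 in the E2A-HLF cotransduction, a log2 fold change of 0.69 (standard error 0.073, adjusted p = 7.66e-04). It measured 13.5 and 14.6 FPKM against 12 and 13.5 in the stable cells, a difference of 0.13 that did not pass (95% interval -0.032 to 0.29). The higher Sesn2 value of the MLL-AF9 cotransduction came from replicate 2 of PRDM16, the deeper library of its pair.

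**Figure D2:**
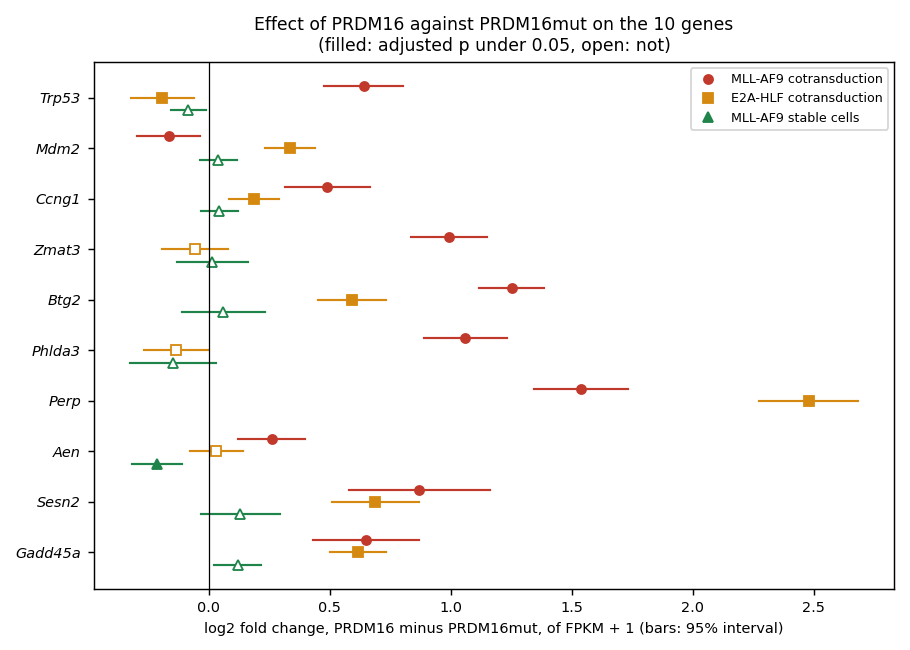
Log2 fold change of FPKM plus 1 (horizontal axis, PRDM16 minus PRDM16mut) with its 95% interval for each gene, in red circles for the MLL-AF9 cotransduction, orange squares for the E2A-HLF cotransduction and green triangles for the stable cells, filled where called. Perp reaches 1.54 and 2.48 in the cotransductions, and the stable cells lie between -0.21 and 0.13.

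Whether the effect of PRDM16 differed between experiments was tested in 1 limma fit of all 12 libraries, as a difference of differences over the 9475 genes above the filter in all 3 tables. Each effect was taken within its own table. Between the MLL-AF9 and E2A-HLF cotransductions, 7 of 9 members differed, where 71.4% of all genes did, a share near that of the members. Between the MLL-AF9 cotransduction and the stable cells 9 of 9 differed, against 64.0% of all genes. For the E2A-HLF cotransduction against the stable cells 5 of 9 differed, against 37.0%. These 3 comparisons share libraries.

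Among the 9 genes tested, the effects on Phlda3, Zmat3 and Trp53 differed most between the cotransductions. The effect in the MLL-AF9 cotransduction was higher than in the E2A-HLF cotransduction by 1.2 for Phlda3 (limma adjusted p = 8.59e-07), 1.05 for Zmat3 (5.47e-07), 0.83 for Trp53 (2.81e-06) and 0.66 for Btg2 (3.81e-05). For Mdm2 it was lower, with a difference of -0.50 (adjusted p = 6.08e-06). Ccng1 (0.30) and Aen (0.23) differed by less. The effects on Gadd45a and Sesn2 did not differ beyond the test, with 95% intervals of -0.17 to 0.24 and -0.14 to 0.50. Without replicate 1 of PRDM16 in the MLL-AF9 cotransduction the Sesn2 difference rose to 0.34 and passed (adjusted p = 0.0211).

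Against the stable cells, the effect in the MLL-AF9 cotransduction was higher for 8 members and lower for Mdm2 (-0.20, limma adjusted p = 0.00414). Of the 9 genes tested, the differences ran up to 1.21 for Phlda3 and 1.19 for Btg2. The effect in the E2A-HLF cotransduction exceeded that in the stable cells for Sesn2 (0.56), Btg2 (0.53), Gadd45a (0.50), Mdm2 (0.30) and Aen (0.25). For Trp53, Zmat3, Phlda3 and Ccng1 it did not differ beyond the test, with 95% intervals of -0.27 to 0.056, -0.24 to 0.097, -0.19 to 0.21 and -0.015 to 0.30. Without replicate 2 of PRDM16mut in the E2A-HLF cotransduction (adjusted p = 0.0512) or in the stable cells (0.0514) the Sesn2 difference was lost, and the Aen difference was lost without replicate 2 of PRDM16 in the stable cells (0.0557). The Ccng1 difference passed without either PRDM16 library of the MLL-AF9 cotransduction (0.0242 for each), and the Trp53 difference after quantile normalization (-0.18, 0.0347). Perp entered no such test under the filter. With no filter and 14800 genes, its effect was lower in the MLL-AF9 than in the E2A-HLF cotransduction by a difference of -0.94 (adjusted p = 1.08e-04). Against the stable cells it was higher by 1.44 in the MLL-AF9 cotransduction (9.93e-06) and by 2.38 in the E2A-HLF cotransduction (1.19e-06).

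**Figure D3:**
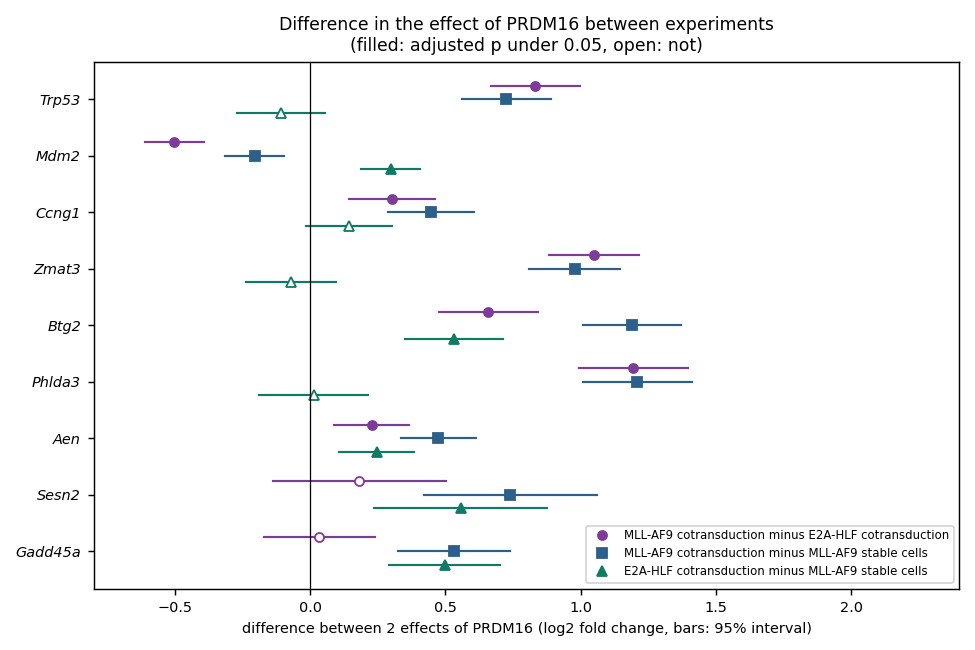
Difference between experiments in the effect of PRDM16 (horizontal axis, log2 scale) with its 95% interval for the 9 genes above the filter in all 3 tables, filled where called. Mdm2 lies at -0.50 and -0.20 in the differences that start from the MLL-AF9 cotransduction, where the other called genes lie above 0.

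Genes that act on p53 were called about as often as all genes in the MLL-AF9 cotransduction. Among 16 tested regulators, 5 were higher and 6 lower there (median log2 fold change 0.0040), beside 35.6% higher and 34.0% lower over all genes, 1 rose and 3 fell in the E2A-HLF cotransduction (-0.0092), and 1 rose in the stable cells (0.0073). Without either PRDM16mut library of the MLL-AF9 cotransduction 1 rose, and without replicate 2 of PRDM16mut 3 fell. Mdm4, the partner of Mdm2 that masks p53, measured 5.53 and 6.14 FPKM against 15.4 and 15.9 in the MLL-AF9 cotransduction, a log2 fold change of -1.29 (limma adjusted p = 6.10e-05). Mdm2 (-0.16) and Mdm4 were thus both lower there with PRDM16, Mdm4 by far the more. The Mdm2 call was lost without either PRDM16mut library. Some other genes that work against p53 rose there: Ccng1 by 0.49, Rchy1 by 0.29 and Ppm1d by 0.21. The Rchy1 and Ppm1d calls were also lost without either PRDM16mut library. The listed regulators Trim24 (0.11, limma adjusted p = 0.180) and Rfwd2 (-0.0074, 0.913) did not pass there. Mdm4 differed by 0.21 in the E2A-HLF cotransduction (adjusted p = 0.0706) and by -0.14 in the stable cells (0.111), neither past the test.

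Cdkn2a, which encodes the Mdm2 inhibitor ARF and the kinase inhibitor p16 from a shared locus that the tables do not split, rose in all 3 experiments. It measured 36.7 and 38.0 FPKM against 32.3 and 33.8 in the MLL-AF9 cotransduction, 59.3 and 58.5 against 32.6 and 35.7 in the E2A-HLF cotransduction, and 20.4 and 18.6 against 11.4 and 11.4 in the stable cells. The log2 fold changes were 0.17, 0.77 and 0.73 (limma adjusted p = 0.0375, 1.52e-04 and 0.00397). The third was lost without a filter on low values (0.0608). The first was lost after quantile normalization (0.0527) and without either PRDM16mut library (0.336 and 0.183). Ppm1d, a phosphatase that shuts p53 signalling down and is itself a p53 target, rose by 0.21 in the MLL-AF9 cotransduction (adjusted p = 0.0231) and differed by -0.023 and -0.015 in the other experiments. Its rise was lost without either PRDM16mut library (0.170 and 0.184).

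The kinases that activate p53 after damage were lower in part. Chek1 fell from 8.97 to 4.79 FPKM in the MLL-AF9 cotransduction and from 13.7 to 11.8 in the E2A-HLF cotransduction, Hipk2 from 3.33 to 1.67 in the former, and Chek2 from 21.1 to 17.5 in the latter. Usp7, which stabilizes Mdm2 and p53, fell from 61.0 to 52.5 FPKM in the E2A-HLF cotransduction and from 47.2 to 38.1 in the MLL-AF9 cotransduction. Rpl11 and Rpl5, ribosomal proteins that bind Mdm2, rose by 0.40 and 0.25 in the MLL-AF9 cotransduction, but share reads with processed copies elsewhere in the genome, and Rpl11 differed by 0.040 after quantile normalization (adjusted p = 0.446). Rchy1, another ligase for p53, rose by 0.29. The Rpl5 and Rchy1 calls were lost without either PRDM16mut library.

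Other targets that halt the cell cycle split into 5 higher and 3 lower among 10 tested in the MLL-AF9 cotransduction, 2 and 3 of 9 in the E2A-HLF cotransduction, and 2 and 0 of 8 in the stable cells. The counts of this list and of the lists below are set beside the shares over all genes. Those were 35.6% higher and 34.0% lower in the MLL-AF9 cotransduction and 22.7% and 21.1% in the E2A-HLF cotransduction. For the stable cells they were 4.20% and 2.16%. Cdkn1a, which encodes the cyclin-dependent kinase inhibitor p21 and is the classic p53 target, rose in all 3 experiments. It measured 200.3 and 212 FPKM against 108 and 108 in the MLL-AF9 cotransduction, 159 and 159 against 104 and 107 in the E2A-HLF cotransduction, and 61.2 and 57.7 against 46.8 and 46.3 in the stable cells. The log2 fold changes were 0.92, 0.59 and 0.35 (limma adjusted p = 7.12e-05, 1.64e-04 and 0.0156). The last was lost without any 1 of its 4 libraries (adjusted p from 0.0546 to 0.0910) and without a filter on low values (0.0750). The effect was higher in the MLL-AF9 than in the E2A-HLF cotransduction by 0.33 (adjusted p = 5.78e-04). Ptp4a3, a phosphatase, and Btg1, a relative of Btg2, rose by 1.27 and 1.17 in the MLL-AF9 cotransduction, and Btg1 by 0.25 in the stable cells. Rprm, a cell cycle inhibitor of the G2 phase, went the other way, from 25.9 to 0.448 FPKM in the MLL-AF9 cotransduction and from 74.9 to 48.9 in the E2A-HLF cotransduction. Ckap2 fell by 0.58 and by 0.18 in the cotransductions. Plk3, a stress kinase, changed by -0.36 in the first, a call lost without either PRDM16mut library (adjusted p = 0.0797 and 0.0712), and by 1.40 in the second. Fbxw7, a ubiquitin ligase subunit, fell by 0.53 in the E2A-HLF cotransduction.

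Among 13 tested targets listed under cell death, 6 were higher and 5 lower in the MLL-AF9 cotransduction (69.5% of all genes called, in both directions), 2 and 4 of 10 in the E2A-HLF cotransduction (43.8%), and 0 and 0 of 12 in the stable cells by limma (1 and 0 at an unadjusted p under 0.05). Not all of them promote death. Bbc3 (PUMA) and Bax, death-promoting members of the Bcl2 family, rose by 1.15 and 0.59 in the MLL-AF9 cotransduction, and Eda2r, a death receptor, from 0.513 to 1.77 FPKM. Apaf1, the core of the apoptosome, fell there from 20.6 to 7.06 FPKM, Dram1, a lysosomal protein, from 12.4 to 2.88 and Tnfrsf23, a decoy receptor, from 5.41 to 1.60. With E2A-HLF Pmaip1 (NOXA) rose from 22.1 to 41.1 FPKM and Apaf1 from 10.8 to 12.7. Casp1, an inflammatory caspase, fell from 8.88 to 0.409 FPKM there, and Trp53inp1 and Eda2r fell by 0.46 and 0.52.

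Targets in DNA repair and metabolism numbered 12 higher and 5 lower among 19 in the MLL-AF9 cotransduction (median log2 fold change 0.43), 7 and 6 of 19 in the E2A-HLF cotransduction (0.081), and 0 and 0 of 18 in the stable cells by limma (0.011, with 3 and 0 at an unadjusted p under 0.05). Ddit4, which like Sesn2 restrains mTORC1, rose from 22.3 to 50.6 FPKM and from 19.0 to 26.8 in the cotransductions. Tap1, a peptide transporter that interferon also induces, and Sesn1, the relative of Sesn2, rose by 1.31 and 1.19 in the MLL-AF9 cotransduction and fell by 0.78 and 0.61 in the E2A-HLF cotransduction. Sesn1 and Sesn2 thus moved the same way in the former and apart in the latter. Polh, a lesion-bypass polymerase, Xpc, a damage sensor, and 9630033F20Rik, the gene of the metabolic enzyme TIGAR, fell by 0.78, 0.80 and 0.89 in the MLL-AF9 cotransduction. In the E2A-HLF cotransduction 9630033F20Rik, Polh and the stress cytokine Gdf15 rose by 0.54, 0.37 and 0.74, and Ak1, an adenylate kinase, fell by 0.45. Both Gdf15 and Ak1 rose in the MLL-AF9 cotransduction, by 1.30 and 1.36.

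Genes known to be repressed by p53 through p21 and the DREAM complex are mostly mitotic. Of these, 15 of 15 were lower in the MLL-AF9 cotransduction (median -0.65), where 34.0% of all tested genes were lower. The part of p53 or p21 in this was not tested. Cenpe, a mitotic motor, fell from 13.8 to 5.49 FPKM, the kinase Cdk1 from 69.6 to 36.4 and its cyclin Ccnb1 from 94.5 to 53.7. In the E2A-HLF cotransduction, where Cdkn1a also rose, 1 of 15 was higher (Mybl2, 0.20) and 1 lower (Kif23, -0.23), with a median of 0.036. After quantile normalization 4 were lower there, and in 1 fit of the 12 libraries, which shares the variance and tests the 9475 genes above the filter in all 3 tables, 4 were higher and 2 lower. In the stable cells 0 of 15 were called by limma (median 0.010), with 1 higher and 1 lower at an unadjusted p under 0.05.

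**Figure D4:**
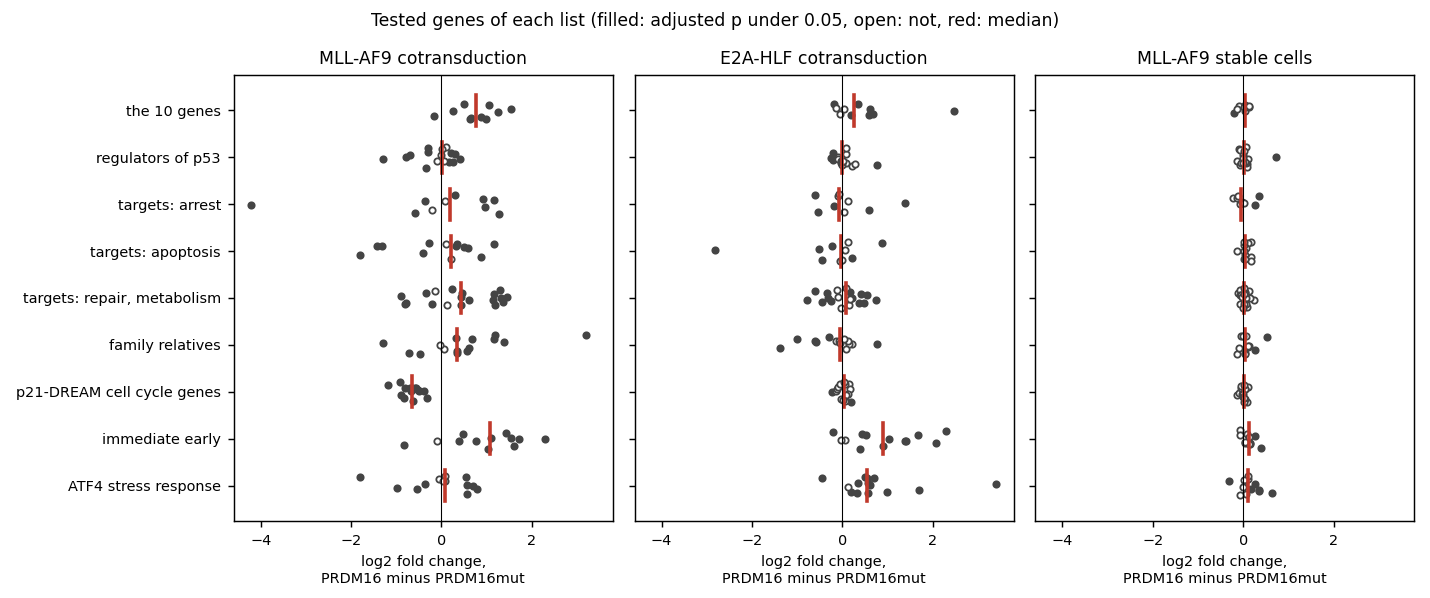
Log2 fold change (horizontal axis, PRDM16 minus PRDM16mut) of every tested gene of each list in the 3 experiments, filled where called, with the median in red and vertical scatter for legibility alone. The 10 genes have a median of 0.76 and the p21-DREAM genes one of -0.65 in the MLL-AF9 cotransduction, and the medians of the stable cells lie from -0.053 to 0.13.

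Several of the 10 genes also answer to signals other than p53. Immediate early genes, which respond within minutes to growth factors and handling, as Btg2 can, numbered 10 higher and 1 lower among 12 in the MLL-AF9 cotransduction (median 1.07), 10 and 1 of 13 in the E2A-HLF cotransduction (0.90) and 2 and 0 of 11 in the stable cells (0.13). Atf3, Nr4a1 and Klf2 rose by 2.29, 1.60 and 1.71 in the first and Fosb, Egr1 and Fos by 2.30, 1.41 and 2.08 in the second. Fos fell by 0.82 in the first and Nr4a1 by 0.21 in the second, the latter lost after quantile normalization (adjusted p = 0.107). Klf6 and Klf2 rose by 0.26 and 0.39 in the stable cells. Genes of the ATF4 stress response, which also raises Sesn2, numbered 5 higher and 4 lower among 13 in the MLL-AF9 cotransduction (median 0.071), 12 and 1 of 14 in the E2A-HLF cotransduction (0.56) and 5 and 1 of 13 in the stable cells (0.096). Asns, asparagine synthetase, changed by -0.99, 0.71 and 0.26 in these, and Cth by -1.81, 3.41 and 0.64. Trib3 rose by 0.79 in the MLL-AF9 cotransduction and by 0.36 in the stable cells, Slc7a11 and Slc3a2 rose by 0.70 and 0.57 and Atf4 fell by 0.55 in the former, Nupr1 rose by 1.70 and Vldlr fell by 0.45 in the E2A-HLF cotransduction, and Chac1 fell by 0.32 in the stable cells. The part of both lists in the changes of Btg2 and Sesn2 was not tested.

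Some calls on listed genes were lost when a library was left out. Such a fit leaves 1 library in a group, and the part of this smaller group in the losses was not tested. In the E2A-HLF cotransduction those on Chek1 (adjusted p in limma from 0.0560 to 0.0692), Ckap2 (0.0536 to 0.143) and Nr4a1 (0.0518 to 0.183) were lost without any 1 library. Without replicate 1 of PRDM16 there the call on Usp7 was lost (0.0808), and without replicate 2 those on Apaf1 (0.111) and Mybl2 (0.0565). Apaf1 was also lost without either PRDM16mut library (0.0783 and 0.0747). For the stable cells the calls on Btg1 (0.0832 to 0.183), Klf6 (0.0732 to 0.146) and Chac1 (0.0561 to 0.124) were lost without any 1 library. Calls on Klf2 (0.0697 to 0.143), Trib3 (0.0508 to 0.0983) and Asns (0.0506 to 0.144) were lost without either PRDM16 library or replicate 1 of PRDM16mut. The counts of the stable cells followed: without single libraries 0 genes of the list of cell cycle targets were higher, 0 or 1 immediate early genes, and 1 to 3 genes of the ATF4 response. In 1 fit of the 12 libraries, limited to the 9475 genes above the filter in all 3 tables, 2 targets listed under cell death were lower in the MLL-AF9 cotransduction, against 5, and Dram1, Tnfrsf23 and Fas were no longer tested.

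The patterns most like those of Trp53 and Mdm2 were looked up over the 12 libraries as the root mean square difference in log2 of FPKM plus 1, centred on the mean of each table, among 8842 genes. For Trp53 they were Slc50a1 (0.0313), St6galnac6 (0.0354) and Tmem120a (0.0363), where the median gene stood at 0.236. For Mdm2 they were Tmed10 (0.0269), Ostc (0.0279) and Amz2 (0.0280), against a median of 0.166. None of the other 9 members was among the 3 nearest genes of Trp53 or of Mdm2.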

How the data were processed

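Per the labels' protocols, Trizol and a Qiagen column gave the RNA, which was selected with oligo(dT) for TruSeq v2 sequencing. The authors deposited 3 tables of FPKM, 1 per experiment, with 1 column per library. Bowtie2 2.0.0.7, TopHat2 2.0.3, Cuffdiff and build mm9 are named in the submitters' processing notes. The annotation, the scaling between libraries and the filters are not given in those sources. Genes are named by symbol, and no mm9 coordinates are given.

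Each table was fitted alone with limma 3.58.1 in R 4.3.3 (log2 of FPKM plus a pseudocount of 1, variance trend, 1 FPKM or more in 2 or more libraries). A gene was called where its p, adjusted by Benjamini-Hochberg across the table, was under 0.05. With 2 libraries a group the smallest exact permutation p is 0.333, so these p-values rest on the variance shared across genes. The procedure was tested on simulated data. The members and gene lists were chosen with earlier results of these data known. From each list the text names up to 3 called genes of smallest p per direction and experiment. Some of them are also given in another experiment. Mdm4, Ppm1d, Cdkn2a and Cdkn1a are named throughout. Alternatives changed the pseudocount, filter, normalization, variance model, samples in the fit, replicate block and libraries left out. For the lists they were added after seeing the data.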

Additional observations from a re-analysis of the deposited data

Results flagged for a closer look

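The effect of PRDM16 differed between experiments for the following genes by the difference of differences in limma (adjusted p under 0.05). Values are on the log2 scale, the first experiment minus the second. Between the MLL-AF9 and E2A-HLF cotransductions the values were 0.83 for Trp53, -0.50 for Mdm2, 0.30 for Ccng1, 1.05 for Zmat3, 0.66 for Btg2, 0.23 for Aen and 1.2 for Phlda3. Between the MLL-AF9 cotransduction and the MLL-AF9 stable cells they were 0.73 for Trp53, -0.20 for Mdm2, 0.45 for Ccng1, 0.98 for Zmat3, 1.19 for Btg2, 0.47 for Aen, 0.74 for Sesn2, 1.21 for Phlda3 and 0.53 for Gadd45a. For E2A-HLF cotransduction minus stable cells they were 0.30 for Mdm2, 0.53 for Btg2, 0.25 for Aen, 0.56 for Sesn2 and 0.50 for Gadd45a. No group has 4 or more libraries, so single libraries were not screened as outliers.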

How the results depend on the processing

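Of the calls on members, 8 of 10 in the MLL-AF9 cotransduction, 5 of 7 in the E2A-HLF cotransduction and 0 of 1 in the stable cells stood under every alternative. The exceptions were Mdm2 and Aen, Trp53 and Ccng1, and Aen. Of 343 recomputed effects of members, 318 kept their direction and side of the threshold, 19 lost and 1 gained a call and 5 turned sign. Of 504 recomputed differences between experiments, 492 kept both, 3 lost and 4 gained a call and 5 turned sign.

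The number of members called lower was 0 in the MLL-AF9 cotransduction with the replicate block. In the E2A-HLF cotransduction it was 0 with no filter on low values and 0 with the replicate block. In the stable cells it was 0 with no filter, 2 after quantile normalization and 0 without a variance trend. With an FPKM of at least 5, where 6 members were tested, 4 differed between the cotransductions, since fewer genes passed. Elsewhere the cause was not tested. In the stable cells 41 genes were called in all with no filter, against 673.

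With single libraries left out, members called higher ranged from 8 to 9, 5 to 6 and 0 to 0 in the 3 experiments, and members called lower from 0 to 1, 0 to 1 and 0 to 0. Members that differed ranged from 7 to 8 between the cotransductions, 9 to 9 between the MLL-AF9 cotransduction and the stable cells and 4 to 6 between the E2A-HLF one and the stable cells. A group left with 1 library was assumed to vary like the other.

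No sign that turned belonged to a called value. After quantile normalization Aen was -0.0092 in the E2A-HLF cotransduction and Zmat3 -0.020 in the stable cells. With single libraries left out the values ran from -0.018 to 0.050 for Zmat3 (-0.0011 among them), -0.0037 to 0.13 for Btg2 and -0.075 to 0.046 for Ppm1d in the stable cells, and from -0.068 to 0.021 for Ppm1d in the E2A-HLF cotransduction (0.0065 among them). The difference between the cotransductions ran from -0.077 to 0.15 for Gadd45a. That from the E2A-HLF cotransduction to the stable cells ran from -0.063 to 0.089 for Phlda3 (-0.015 in 3 cases).

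Same-numbered libraries share a number in the labels and nothing else, with 2 pairs per experiment. Their deviations correlated at 0.067 in the MLL-AF9 cotransduction, 0.289 in the E2A-HLF one and 0.319 in the stable cells. With the replicate block Mdm2 in the MLL-AF9 cotransduction had an adjusted p of 0.0771 in limma, Trp53 in the E2A-HLF cotransduction 0.0740 and Cdkn2a in the MLL-AF9 cotransduction 0.0648. The share of calls that were higher over all genes moved by no more than 10 points under other scalings in the cotransductions, and from 66.0% to 51.6% after quantile normalization and 52.6% with median-of-ratios size factors in the stable cells.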

Other observations

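Relatives of the 10 genes were counted too, with no test against the 10 genes. Of 15 tested in the MLL-AF9 cotransduction 10 rose and 3 fell (median log2 fold change 0.35), of 14 in the E2A-HLF cotransduction 1 rose and 5 fell (-0.058), and of 12 in the stable cells 2 rose (0.048). Phlda2, a relative of Phlda3, measured 89.6 and 90.3 FPKM against 9.35 and 8.41 (PRDM16 first) in the MLL-AF9 cotransduction, a log2 fold change of 3.20 (limma adjusted p = 3.53e-06). In the E2A-HLF cotransduction it measured 20.6 and 20.3 FPKM against 52.3 and 57.2, a log2 fold change of -1.38 (adjusted p = 1.60e-05). Phlda1 fell by 0.72 in the MLL-AF9 cotransduction.

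Gadd45b, the relative of Gadd45a that answers to inflammatory signals, fell from 9.66 to 6.68 FPKM in the MLL-AF9 cotransduction, where Gadd45a and Gadd45g rose (0.57 for Gadd45g, named after its value was seen). Tob1, an antiproliferative protein of the Btg family, rose from 14.0 to 37.9 FPKM there, and Tob2 from 8.62 to 15.4 in the E2A-HLF cotransduction. Isg20, an interferon-induced nuclease related to Aen, fell from 16.0 to 7.46 FPKM in the E2A-HLF cotransduction. Ccng2, the relative of Ccng1, rose from 9.51 to 14.2 FPKM in the stable cells (adjusted p = 0.00296), where Ccng1 did not pass.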
